A study of Bos taurus with 41 samples.

Results

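The genes described here are 29 members of cholesterol and fatty acid synthesis, chosen by symbol from what the pathway is known to contain and found in the gene count table of bovine conceptus tissue. The choice was made with earlier results of these data known. All 29 symbols were present among the 16149 genes of that table, and all 29 passed the filter on low counts that left 15942 genes for testing. They comprise 17 enzymes of the mevalonate and sterol pathway, 4 genes of sterol regulation and transport and 8 genes of fatty acid synthesis, elongation and desaturation. The tissue was elongated Day 16 conceptus. It was either derived in vivo after artificial insemination of Angus-Holstein heifers (IVD) or grown from in vitro produced blastocysts transferred to Angus-Holstein recipients (IVP). Semen of the same bull was used in both, while the oocytes of the IVP blastocysts came from abattoir ovaries. The types thus differ in the source of the oocyte as well as in the method. Sections of each conceptus were cultured for 12 h in RPMI medium with dialyzed serum, either alone (mono-culture) or with intercaruncular endometrial explants from Day 16 cyclic heifers (co-culture). The groups held 8 IVD mono-culture, 9 IVD co-culture, 5 IVP mono-culture and 7 IVP co-culture RNA-Seq libraries, and 12 further libraries were of endometrium cultured with IVP conceptus.

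Cholesterol is built from acetyl-CoA through mevalonate, isoprenoid diphosphates, squalene and lanosterol, and the same acetyl-CoA feeds fatty acid synthesis through malonyl-CoA. Transcription of both pathways is controlled by the sterol regulatory element binding proteins (SREBPs), which are held in the endoplasmic reticulum when sterols are plentiful and are released to the nucleus when sterols are short. The elongating ruminant trophectoderm grows quickly and makes membrane, and its lipid droplets and fatty acid derivatives have been studied as part of elongation.

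The unit of sampling limits every comparison below. The titles name 13 conceptuses behind the 29 libraries, and 11 of them were cultured both ways (7 IVD and 4 IVP). Co-culture rests on 7 IVD conceptuses in 9 libraries and on 4 IVP conceptuses in 7, because conceptuses 23, 24, 26, 47 and 62b each gave sections to explants of more than one uterus. Conceptuses 62a and 62b came from the same recipient. Sections of the same conceptus are not separate animals, so p-values from tests that treat them as independent measure in part the spread between sections. One IVP co-culture library (replicate 1, conceptus 24) carries a treatment label that names medium alone and was grouped by its title; without it the numbers of members past the threshold were the same in all 6 comparisons.

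Conceptus libraries held 58583647 to 104436922 counts, and every pair differed by more than sampling noise. The 11 trophoblast markers summed to 5685 to 107017 CPM (counts scaled to library size) in conceptus libraries. The 10 of them measured in endometrium summed to 223 to 1198 CPM there. The conceptus medians were 22479 and 32375 CPM in IVD mono-culture and co-culture and 27537 and 65106 CPM in IVP. The sum is dominated by TKDP1, with IVP medians of 15080 and 42047 CPM. By their IVP medians KRT8 (6002 and 10549 CPM), KRT18 (3979 and 9984 CPM) and PAG2 (765 and 2217 CPM) were also higher in co-culture. GATA3 (159 and 98.8 CPM) and TFAP2C (97.6 and 49.5 CPM) were lower there. For co-culture against mono-culture in IVP, 7 of the 11 markers were above 0, where 46.05% of all genes were. Their median difference was 0.19 on the log2 scale. The 7 endometrial markers measured in conceptus, of 12 listed, summed to 7.66 to 76.2 CPM there, and all 12 summed to 2313 to 9305 CPM in endometrium. DCN, a stromal matrix gene, did not exceed 3.57 CPM in any conceptus library against 1509 to 5429 CPM in endometrium. The 3 erythroid markers measured, of 6 listed, had a summed median of 3.34 CPM in IVD mono-culture and 35.3 CPM in IVD co-culture (IVP, 12.8 and 23.9 CPM). The TMM scaling factor, which follows how unevenly counts are shared among genes, averaged 0.14 and 0.11 on the log2 scale in IVD and IVP mono-culture and -0.04 and -0.19 in co-culture. Between IVP and IVD co-culture, 11 of 11 trophoblast and 6 of 7 endometrial markers were higher in IVP, with medians of 0.33 and 1.03. Of 9 hypoblast markers 2 were higher in IVP, with a median of -0.43, where 44.1% of all genes were. In mono-culture the hypoblast median for IVP against IVD was -0.64. For co-culture against mono-culture it was -0.39 in IVD and -0.065 in IVP. No hypoblast, epiblast or leukocyte marker passed the threshold in any comparison. For co-culture against mono-culture in IVD, 2 of 3 erythroid markers passed as higher, where 3.11% of all genes did. Averaged over the conceptus types, 2 of 3 erythroid and 2 of 11 trophoblast markers passed as higher, where 9.16% of all genes did. In that average 1 of 7 endometrial markers passed as lower, where 9.69% of all genes did. The part of the marker shifts in the results on the lipid genes was not tested. Fits with the scaling factor as a covariate are given below for the members.

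Co-culture was compared with mono-culture in each conceptus type with edgeR's quasi-likelihood test and Benjamini-Hochberg adjustment over all genes, at a threshold of 0.05. In IVD conceptuses 2 of the 29 members fell, LSS and ACACA, and none rose, where 6.33% of all genes tested passed (3.22% lower and 3.11% higher). In IVP conceptuses no member passed, and neither did any other gene (0%). Averaged over the conceptus types, LSS, PMVK and ACACA fell and HSD17B7 rose, 4 of 29 where 18.9% of all genes passed (9.16% higher and 9.69% lower). The average uses the libraries of both types and is not evidence separate from them. With the conceptus as a block 1 member passed in IVD (1.29% of all genes) and 4 in the average (13.4%), and with the uterus as a block or the TMM factor as a covariate none did. The uterus block here and below is the uterus code in the titles. Mono-culture libraries carry such a code too, although they were cultured without endometrium, so the block is not a uterine effect for them. In IVP conceptuses DESeq2 and limma voom also called no member (2.04% and 0% of all genes). As a share, 6.9% of members were called in IVD and 13.8% in the average, and the IVD calls were both on the lower side, where 3.22% of all genes were. In bulk tissue, fewer cells of a type and less RNA per cell cannot be told apart. Levels below are TMM-scaled CPM, given as the lowest, median and highest library of a group, and differences are on the log2 scale with their standard error (SE). A CPM value depends on transcript length, so levels are compared between groups and not between genes.

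**Figure D1:**
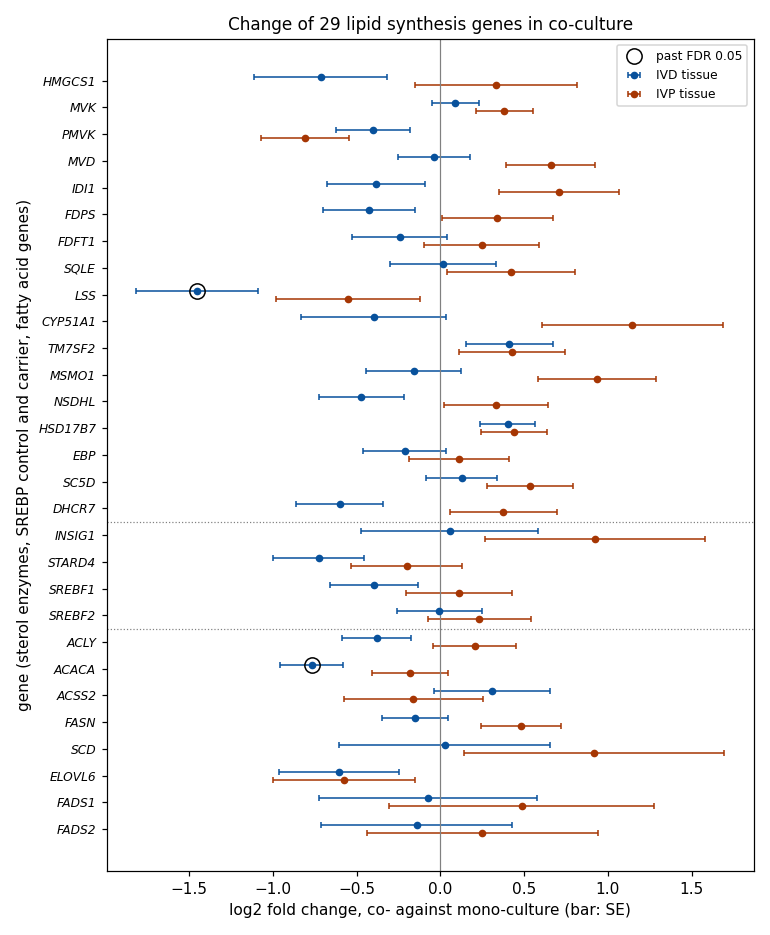
Log2 fold change of co-culture over mono-culture, with SE, for the 29 members in IVD and in IVP conceptuses, ordered by role; circled points passed the threshold of 0.05. The points of IVP lie above 0 for 23 of 29 members and those of IVD for 8 of 29, and the 2 circled points are LSS and ACACA in IVD.

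The first steps make mevalonate and convert it to the isoprenoid units from which sterols are assembled. HMGCS1, which condenses acetoacetyl-CoA and acetyl-CoA at the entry to the pathway, measured 96.5, 292 and 669.9 CPM in IVD mono-culture and 74.5, 179 and 400.5 CPM in IVD co-culture. In IVP mono-culture the 5 libraries gave 89.8, 96.6, 143, 322 and 324 CPM for HMGCS1, and the co-cultured libraries 78.2, 239 and 518 CPM. The groups overlapped throughout, and the highest library of all was the mono-cultured section of IVD conceptus 8.

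MVK and PMVK encode the kinases that phosphorylate mevalonate in turn. MVK measured 28.3, 32.3 and 50.9 CPM in IVD mono-culture, 26.9, 36.5 and 49.3 CPM in IVD co-culture, 19.7, 28.5, 32.2, 34.2 and 35.3 CPM in the 5 IVP mono-culture libraries and 29.9, 36.7 and 46.9 CPM in IVP co-culture. PMVK had 8.89, 12.1 and 21.1 CPM in IVD mono-culture against 6.30, 10.5 and 14.3 CPM in IVD co-culture. In IVP conceptuses PMVK read 7.44, 11.8, 12.1, 14.2 and 23.4 CPM in the mono-cultured libraries and 5.15, 7.45 and 12.8 CPM in the co-cultured ones. Co-culture levels of PMVK lay towards the low end of the mono-culture range in both types, and the groups overlapped.

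PMVK fell in the average over types, by 0.61 on the log2 scale (SE 0.17, edgeR adjusted p = 0.0157). Within the types the estimates for PMVK were -0.40 (SE 0.22, edgeR adjusted p = 0.267) in IVD and -0.81 (SE 0.26, edgeR adjusted p = 0.151) in IVP, neither past the threshold. With the TMM factor as a covariate the average was -0.37 (edgeR adjusted p = 0.384), and with the uterus as a block -0.57 (edgeR adjusted p = 0.0721). The averaged call for PMVK was lost without IVP mono-culture replicate 2 (conceptus 23; -0.47, edgeR adjusted p = 0.0574) and without conceptus 62b (-0.56, edgeR adjusted p = 0.0614). Without that replicate the IVP difference of PMVK was -0.53, and with the covariate -0.50 (edgeR adjusted p = 0.377 and 0.887). MVK was 0.38 higher in IVP co-culture (SE 0.17) with an edgeR adjusted p of 0.239, and 0.11 with the TMM factor as a covariate.

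MVD decarboxylates the doubly phosphorylated mevalonate to isopentenyl diphosphate, and IDI1 isomerises that product. MVD measured 25.9, 36.6 and 60.2 CPM in IVD mono-culture and 26.1, 34.9 and 71.7 CPM in IVD co-culture, which cover nearly the same range. The 5 IVP mono-culture libraries gave 24.9, 34.5, 36.4, 36.7 and 37.6 CPM for MVD, and the co-cultured libraries 34.2, 48.8 and 93.9 CPM. IDI1 had 27.1, 49.9 and 66.7 CPM in IVD mono-culture, 17.2, 33.9 and 60.2 CPM in IVD co-culture, 24.8, 28.5, 43.3, 44.0 and 45.2 CPM in IVP mono-culture and 25.5, 46.7 and 107 CPM in IVP co-culture. For both genes the highest IVP libraries were co-cultured, while the lowest co-cultured libraries lay within the mono-culture range. The IVP difference was 0.66 (SE 0.27, edgeR adjusted p = 0.197) for MVD, 0.43 without conceptus 23 and 0.10 with the TMM factor as a covariate (edgeR adjusted p = 0.515 and 0.946).

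SQLE, LSS and CYP51A1 carry squalene through lanosterol. SQLE, the squalene epoxidase, measured 42.1, 86.1 and 135 CPM in IVD mono-culture, 53.7, 68.7 and 216 CPM in IVD co-culture, 25.5, 41.8, 59.2, 61.6 and 129.6 CPM in IVP mono-culture and 54.8, 73.2 and 130.0 CPM in IVP co-culture. These ranges overlapped. The highest IVD library was co-cultured, and the IVP mono-culture libraries at 25.5 and 41.8 CPM lay below every IVP co-culture library.

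LSS, the cyclase that forms lanosterol, showed the largest difference among the 29 members in IVD conceptuses. LSS measured 8.59, 20.7 and 48.0 CPM in the 8 IVD mono-culture libraries and 3.42, 8.99 and 13.9 CPM in the 9 co-culture libraries, or 23.6 ± 13.7 against 8.63 ± 3.09 CPM (mean ± SD). The lowest mono-culture library, from conceptus 5, lay within the co-culture range, so the groups overlapped. In the IVP mono-culture libraries LSS read 8.67, 9.67, 10.6, 21.5 and 29.1 CPM and in the co-cultured ones 3.99, 9.35 and 25.01 CPM, ranges that overlapped widely.

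LSS fell by 1.45 in IVD co-culture (SE 0.36, edgeR adjusted p = 0.0218) and by 1.00 in the average over types (SE 0.28, edgeR adjusted p = 0.0147). The IVD call held in 11 of 14 alternative fits. Among these were DESeq2 with a conceptus block, limma voom with conceptus as a random block and counts summed per conceptus. In edgeR with the conceptus as a block the IVD difference was as large, -1.52 (SE 0.41), with an edgeR adjusted p of 0.0615, past the threshold no longer. The averaged value there was -0.99 (edgeR adjusted p = 0.0484). The IVD call was also lost without conceptus 8 (-1.12, edgeR adjusted p = 0.0864), its mono-culture library alone (-1.22, edgeR adjusted p = 0.0506), and conceptuses 26 (-1.40), 47 (-1.45) and 71 (-1.28), with edgeR adjusted p of 0.0860, 0.0734 and 0.0733. With the TMM factor as a covariate the IVD difference was -1.47 (edgeR adjusted p = 0.0548), and with the uterus as a block -1.43 (edgeR adjusted p = 0.131). With the TMM factor as a covariate the average was -1.03 (edgeR adjusted p = 0.161), and with the uterus as a block -0.98 (edgeR adjusted p = 0.0718). The average over types was -0.71 without conceptus 62b (edgeR adjusted p = 0.111) and -0.91 with counts summed per conceptus (edgeR adjusted p = 0.0660). The annotated LSS gene overlaps a non-coding RNA gene, and whether the authors' counts used strand is not given in the sources used here.

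**Figure D2:**
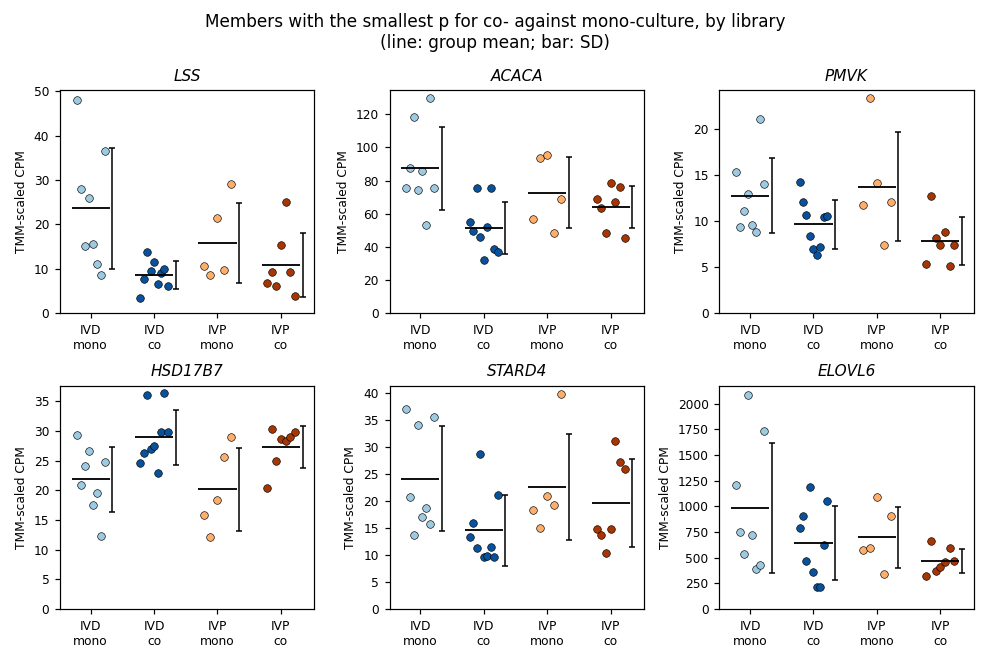
TMM-scaled CPM of LSS, ACACA, PMVK, HSD17B7, STARD4 and ELOVL6 by library in the 4 conceptus groups, with group mean (line) and SD (bar). LSS averaged 23.6 CPM in IVD mono-culture and 8.63 CPM in IVD co-culture, and in each panel the mono-culture and co-culture points overlap.

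CYP51A1, the lanosterol demethylase, measured 46.4, 106 and 182 CPM in IVD mono-culture and 35.9, 73.1 and 149 CPM in IVD co-culture. In IVP conceptuses CYP51A1 read 23.6, 74.7, 80.1, 164 and 234 CPM in mono-culture and 49.9, 202 and 691 CPM in co-culture. The co-culture libraries of IVP conceptuses thus spanned from within the IVD range to well above it. The IVP difference between cultures was 1.15 (SE 0.54, edgeR adjusted p = 0.260), 0.68 without IVP co-culture replicate 6 (conceptus 62b; edgeR adjusted p = 0.572) and 0.34 with the TMM factor as a covariate (edgeR adjusted p = 0.921).

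The remaining sterol enzymes turn lanosterol into cholesterol. TM7SF2, a sterol reductase, had few counts, at 1.48, 2.27 and 5.53 CPM in IVD mono-culture, 1.92, 3.50 and 4.81 CPM in IVD co-culture, 1.65 to 2.10 CPM in IVP mono-culture and 1.36, 2.15 and 4.02 CPM in IVP co-culture. MSMO1, the methyl sterol oxidase, had 58.4, 153 and 228 CPM in IVD mono-culture, 66.0, 117 and 214 CPM in IVD co-culture, 40.9, 68.6, 111, 113 and 131 CPM in IVP mono-culture and 97.5, 166 and 302 CPM in IVP co-culture. MSMO1 was 0.93 higher in IVP co-culture (SE 0.35, edgeR adjusted p = 0.173), and the lowest co-cultured libraries lay within the mono-culture range.

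NSDHL, which acts after MSMO1 in the removal of the same methyl groups, measured 20.8, 39.8 and 68.6 CPM in IVD mono-culture, 21.0, 24.95 and 43.7 CPM in IVD co-culture, 24.3, 24.3, 33.9, 39.4 and 55.5 CPM in IVP mono-culture and 21.0, 35.5 and 76.4 CPM in IVP co-culture. HSD17B7, the keto reductase of the same complex, measured 12.2, 22.5 and 29.4 CPM in IVD mono-culture and 22.9, 27.5 and 36.4 CPM in IVD co-culture. The IVP libraries gave 12.1, 15.8, 18.4, 25.7 and 29.04 CPM for HSD17B7 in mono-culture and 20.5, 28.7 and 30.3 CPM in co-culture. In both types the co-cultured sections of HSD17B7 lay in the upper part of the range, with overlap.

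HSD17B7 rose in the average over types, by 0.42 (SE 0.13, edgeR adjusted p = 0.0233), and held with the conceptus as a block (0.40, edgeR adjusted p = 0.0392). Its estimates were 0.40 (SE 0.16, edgeR adjusted p = 0.129) in IVD and 0.44 (SE 0.20, edgeR adjusted p = 0.243) in IVP. The averaged call was lost without IVP mono-culture replicate 1 (0.38, edgeR adjusted p = 0.0532) or replicate 2 (0.35, edgeR adjusted p = 0.0577) and without conceptus 23 (0.34, edgeR adjusted p = 0.0818). The IVP estimate was 0.27 without conceptus 23 (edgeR adjusted p = 0.614) and 0.26 with the TMM factor as a covariate (edgeR adjusted p = 0.887). With that covariate the average was 0.27 (edgeR adjusted p = 0.351), with the uterus as a block 0.34 (edgeR adjusted p = 0.0867) and with counts summed per conceptus 0.42 (edgeR adjusted p = 0.0531). HSD17B7 overlaps an annotated non-coding RNA gene.

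DHCR7, which reduces the last double bond before cholesterol, measured 42.2, 94.1 and 134 CPM in IVD mono-culture, 40.4, 59.2 and 104 CPM in IVD co-culture, 35.6, 53.4, 75.3, 78.3 and 104 CPM in IVP mono-culture and 39.2, 69.5 and 148 CPM in IVP co-culture. Its IVD difference was -0.60 (SE 0.26, edgeR adjusted p = 0.156). The other sterol enzymes were FDPS, which makes farnesyl diphosphate, FDFT1, the squalene synthase, EBP, the sterol isomerase, and SC5D, the desaturase. Over the 29 conceptus libraries FDPS ranged from 19.5 to 95.5 CPM, FDFT1 from 28.6 to 132 CPM, EBP from 17.7 to 69.01 CPM and SC5D from 57.3 to 234 CPM, and none of these genes passed in any comparison.

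Of the group as a whole, 5 of the 17 sterol enzymes had an estimate above 0 in IVD co-culture, with a median of -0.24, and 15 of 17 in IVP co-culture, with a median of 0.38. Over all genes tested the medians were -0.02 and -0.05. At an unadjusted p under 0.05, edgeR gave 1 sterol enzyme higher and 2 lower in IVD, where 11.7% and 11.8% of all genes were, and 6 higher and 1 lower in IVP, where 8.59% and 9.69% were. The 6 were MSMO1, MVD, MVK, HSD17B7, CYP51A1 and SC5D, and the 1 was PMVK.

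Neither SREBP gene passed in any comparison. SREBF2, which encodes the SREBP that acts mainly on sterol genes, measured 246, 335 and 452 CPM in IVD mono-culture and 264, 331 and 438 CPM in IVD co-culture. In IVP mono-culture SREBF2 read 181 CPM in conceptus 24, 209.9 CPM in conceptus 23, 233 CPM in conceptus 37, 691 CPM in conceptus 62a and 578 CPM in conceptus 62b. The co-cultured sections of 62a and 62b gave 529 to 701 CPM and those of conceptuses 23 and 24 gave 208 to 374 CPM. The IVP levels of SREBF2 therefore separated by conceptus, with the pair from one recipient above every IVD library in both cultures.

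SREBF1, which encodes the SREBP forms acting mainly on fatty acid genes, had 40.03, 59.2 and 128 CPM in IVD mono-culture, 25.7, 55.3 and 85.9 CPM in IVD co-culture, 41.4, 61.9, 74.8, 86.7 and 109.8 CPM in IVP mono-culture and 43.0, 86.8 and 126 CPM in IVP co-culture. INSIG1, an SREBP target whose protein holds the SREBPs in the endoplasmic reticulum, measured 17.6, 34.4 and 83.6 CPM in IVD mono-culture and 12.7, 47.9 and 91.0 CPM in IVD co-culture. In IVP mono-culture INSIG1 read 17.04 CPM in conceptus 23, 21.7 CPM in conceptus 24, 35.5 CPM in conceptus 37, 235 CPM in conceptus 62a and 134 CPM in conceptus 62b. IVP co-culture gave 28.0, 88.7 and 412 CPM for INSIG1, and its 3 highest libraries were the sections of 62a and 62b, at 213 to 412 CPM. Both SREBF1 and INSIG1 had no call in any comparison.

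STARD4, a carrier that moves sterol between membranes and an SREBP target, measured 13.8, 19.8 and 37.1 CPM in IVD mono-culture, 9.57, 11.46 and 28.8 CPM in IVD co-culture, 15.0, 18.3, 19.3, 21.0 and 39.8 CPM in IVP mono-culture and 10.3, 14.8 and 31.1 CPM in IVP co-culture. Its IVD difference was -0.73 (SE 0.27, edgeR adjusted p = 0.102), and its average over types was -0.47 (SE 0.21, edgeR adjusted p = 0.126). With the conceptus as a block the average was -0.50 (SE 0.16, edgeR adjusted p = 0.0471), past the threshold, and the IVD value -0.81 (edgeR adjusted p = 0.0559). DESeq2 with a conceptus block (-0.79, adjusted p = 0.00609) and limma voom (-0.78, limma adjusted p = 0.0276) called STARD4 in IVD, and both called its average (adjusted p = 0.0218 and 0.0350). Its edgeR adjusted p with the TMM factor as a covariate was 0.124 in IVD and 0.222 in the average. Without IVD co-culture replicate 4 (conceptus 47) the IVD difference was -0.91 (edgeR adjusted p = 0.0380).

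Among the fatty acid genes, ACLY makes cytosolic acetyl-CoA from citrate. ACLY measured 112, 202 and 265 CPM in IVD mono-culture, 91.4, 137 and 251 CPM in IVD co-culture, 86.8, 97.6, 113, 119 and 188 CPM in IVP mono-culture and 79.3, 132 and 187 CPM in IVP co-culture. All 5 IVP mono-culture libraries lay below the median of the IVD mono-culture libraries. ACSS2, which makes acetyl-CoA from acetate, ranged from 7.08 to 55.4 CPM over the 29 libraries and passed in no comparison.

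ACACA encodes acetyl-CoA carboxylase, the step that commits acetyl-CoA to fatty acids. It measured 53.2, 80.8 and 129.8 CPM in IVD mono-culture and 32.3, 49.5 and 75.7 CPM in IVD co-culture, or 87.5 ± 24.95 (SD, n = 8) against 51.3 ± 15.5 CPM (SD, n = 9). In IVP mono-culture ACACA read 48.4, 57.1, 68.7, 93.9 and 95.3 CPM and in IVP co-culture 45.4, 67.0 and 78.7 CPM. The IVD groups overlapped between 53.2 and 75.7 CPM, and the IVP groups overlapped over most of their range.

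ACACA fell by 0.77 in IVD co-culture (SE 0.19, edgeR adjusted p = 0.0195), and held with the conceptus as a block (-0.69, SE 0.17, edgeR adjusted p = 0.0489). The call was lost without IVD co-culture replicate 8 (conceptus 47; -0.70, edgeR adjusted p = 0.0537), without all sections of conceptus 47 (-0.70, edgeR adjusted p = 0.0872) and without conceptus 71 (-0.75, edgeR adjusted p = 0.0551). With the TMM factor as a covariate the IVD difference was -0.70 (edgeR adjusted p = 0.0817), with the title number as a block -0.72 (edgeR adjusted p = 0.0597) and with the uterus as a block -0.60 (edgeR adjusted p = 0.182). In the average over types ACACA fell by 0.48 (SE 0.15, edgeR adjusted p = 0.0249). With the conceptus as a block that average was -0.37 (edgeR adjusted p = 0.0610), with the TMM factor as a covariate also -0.37 (edgeR adjusted p = 0.356) and with the uterus as a block -0.40 (edgeR adjusted p = 0.132). It was not past the threshold in 9 of the fits that left out a library or a conceptus, at -0.48 to -0.42: IVP mono-culture replicates 2 and 5, IVP co-culture replicate 7 and conceptuses 23, 24, 37, 47, 50 and 62b. ACACA overlaps annotated small nuclear and long non-coding RNA genes and C19H17orf78, so part of its counts may be shared.

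FASN, the synthase that builds palmitate from malonyl-CoA, measured 212, 388 and 476 CPM in IVD mono-culture, 250.0, 329.9 and 486 CPM in IVD co-culture, 170.2, 200.3, 277, 306 and 393 CPM in IVP mono-culture and 224, 377 and 551 CPM in IVP co-culture. ELOVL6, which lengthens palmitate to stearate, had 392, 736 and 2081 CPM in IVD mono-culture, 213, 628 and 1190 CPM in IVD co-culture, 336, 573, 590.3, 904 and 1088 CPM in IVP mono-culture and 324, 458 and 662 CPM in IVP co-culture. The average difference of ELOVL6 over types was -0.59 (SE 0.28, edgeR adjusted p = 0.134), and the groups overlapped. DESeq2 with a conceptus block called it (-0.53, adjusted p = 0.0341), as did edgeR with 1 factor of unwanted variation (-0.62, edgeR adjusted p = 0.0405). FASN passed in no comparison.

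The desaturases had a larger within-group SD of log2 CPM than any sterol enzyme. SCD, which makes oleate from stearate, measured 156, 759 and 4070 CPM in IVD mono-culture, 364, 1210 and 4162 CPM in IVD co-culture, 139, 427, 1002, 1656 and 2337 CPM in IVP mono-culture and 531, 1702 and 4033 CPM in IVP co-culture. FADS1, which makes arachidonate among other polyunsaturated fatty acids, measured 137, 1004 and 2799 CPM in IVD mono-culture and 166, 1013 and 2020 CPM in IVD co-culture. In IVP mono-culture FADS1 read 132 CPM in conceptus 23, 200 CPM in conceptus 37, 1242 CPM in conceptus 24, 3567 CPM in conceptus 62b and 5508 CPM in conceptus 62a, a 41.7-fold range, and in IVP co-culture 372, 3399 and 4493 CPM. FADS2 ranged from 91.9 to 1612 CPM over the 29 libraries. FADS1 and FADS2 overlap each other in the annotation, so their reads may not be separable.

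The within-group standard deviation of log2 CPM had a median of 0.57 over the 29 members and 0.57 over all genes tested. It was 1.61 for FADS1, 1.46 for SCD, 1.31 for FADS2, 1.2 for INSIG1 and 0.97 for CYP51A1, and lowest for MVK at 0.28 and HSD17B7 at 0.34. For the genes with the widest spread only large differences between groups could be detected. Where a conceptus gave sections to cultures with different uteri, the members differed between those sections by a median of 0.51 to 0.69, against 0.53 to 0.74 for all genes. The largest such difference was 3.39 for FADS2 in conceptus 23.

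Because 11 conceptuses were cultured both ways, co-culture can be read against mono-culture in sections of the same conceptus. LSS was lower in co-culture in all 7 IVD conceptuses, with differences in log2 CPM of -0.13 in conceptus 22, -0.43 in 50, -0.76 in 66, -1.43 in 47, -1.74 in 26, -2.55 in 71 and -3.81 in 8. In the 4 IVP conceptuses the LSS difference was above 0 in 62a, 0.47 in 23, -0.73 in 24 and -2.25 in 62b, so the direction was not shared. ACACA was lower in all 7 IVD conceptuses, at -1.41 to -0.04, and ranged from -0.41 to 0.47 in IVP.

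Of the 29 members, 5 were lower in all 7 IVD conceptuses, namely LSS, ACACA, PMVK, STARD4 and ELOVL6, where 7.64% of all genes were, and no member was higher in all 7, where 7.19% of genes were. In IVP, 12 of 29 members were higher in all 4 conceptuses, where 10.1% of all genes were, and none was lower in all 4, where 12.8% were. Those 12 were the sterol enzymes MVK, MVD, IDI1, SQLE, CYP51A1, MSMO1, NSDHL, HSD17B7, SC5D and DHCR7 and the fatty acid genes ACLY and FASN. Over both types, PMVK, STARD4 and ELOVL6 were lower in 10 of 11 conceptuses, with conceptus 62a as the exception, and HSD17B7 was higher in 10 of 11, with conceptus 8 as the exception. Members that vary together across libraries are not separate observations, so these counts are not independent of each other.

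MSMO1 had the highest median difference of the 17 sterol enzymes in IVP, where those of LSS and PMVK were -0.13 and -0.90. The MSMO1 difference was 1.53, 1.503, 0.89 and 0.62 in IVP conceptuses 24, 23, 62a and 62b, and in IVD conceptuses it ran from -1.79 in conceptus 8 through -0.84 in 71, -0.33 in 26 and -0.31 in 47 to 0.14 in 22, 0.24 in 50 and 1.01 in 66. CYP51A1 differed by 1.77, 1.14, 1.03 and 0.68 in IVP conceptuses 24, 62a, 23 and 62b and by -2.34 to 1.03 in IVD.

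Taken per conceptus, the median difference over the 17 sterol enzymes was -1.71 in IVD conceptus 8, -0.92 in 71, -0.39 in 26, -0.31 in 47, 0.10 in 50, 0.13 in 66 and 0.24 in 22. In IVP conceptuses it was 0.88 in 23, 0.62 in 62a, 0.38 in 24 and 0.28 in 62b. Every IVP median was above every IVD median, while over all genes tested the medians of the 11 conceptuses ran from -0.11 to 0.00. All 17 sterol enzymes, and all 29 members, were lower in co-culture in conceptus 8, whose mono-cultured section was the highest of the IVD mono-culture group for 17 members and whose co-cultured section was the lowest of the IVD co-culture group for 10. With 4 IVD conceptuses below 0 and 3 above, the IVD sections did not share a direction.

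**Figure D3:**
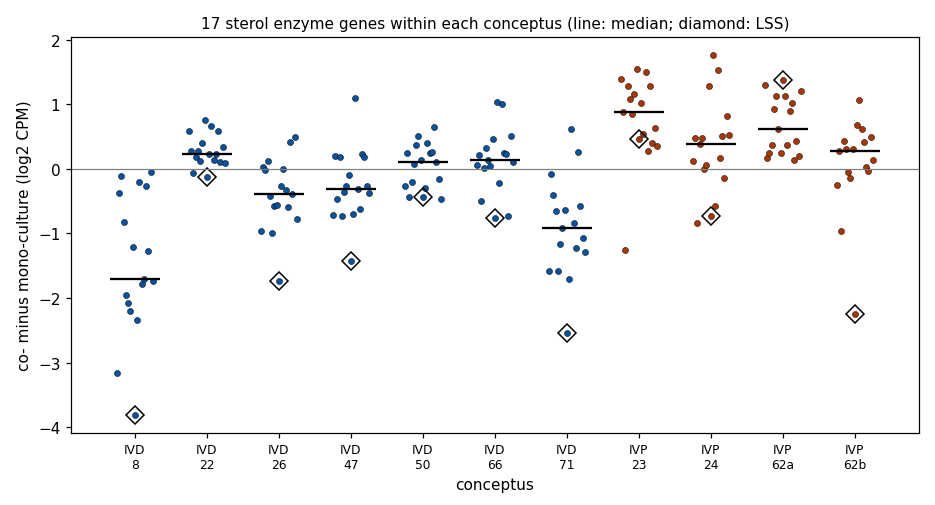
Co-culture minus mono-culture difference in log2 CPM of the 17 sterol enzymes within each of the 11 conceptuses cultured both ways, with LSS as a diamond. The median of the enzymes ran from -1.71 to 0.24 in the 7 IVD conceptuses and from 0.28 to 0.88 in the 4 IVP conceptuses, and LSS lay below 0 in all 7 IVD conceptuses.

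Whether the response to endometrium differed between IVP and IVD conceptuses was tested as the difference of the log2 changes. No member passed with edgeR, DESeq2 or limma voom (0% of all genes with each). At an unadjusted p under 0.05 edgeR gave 5 members, all with the change in IVP above that in IVD, where 1.76% of all genes passed that limit (0.953% in that direction). These were MSMO1 (1.09, SE 0.45), DHCR7 (0.98, SE 0.41), IDI1 (1.09, SE 0.46), CYP51A1 (1.54, SE 0.69) and FASN (0.63, SE 0.31), each with an edgeR adjusted p of 1.00. The estimate was above 0 for 27 of 29 members, with a median of 0.56, against 46.2% of all genes and a median of -0.03. The count of 27 was unchanged with DESeq2's size factors and was 26 with the conceptus as a block. Members vary together across libraries, so it is not a count of separate observations. The mono-culture levels enter this difference, and there 7 of 29 members were above 0 for IVP against IVD. A difference in response of single members between the types was thus not shown at the all-gene threshold.

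IVP and IVD conceptuses were also compared within each culture. In mono-culture no member passed with edgeR (0% of all genes), DESeq2 (0.00627%) or limma voom (0%), and 1 of 29 had an unadjusted p under 0.05, where 2.08% of all genes did. That member was ACLY, with an IVP minus IVD difference of -0.66 (SE 0.25, edgeR adjusted p = 1.00). FASN (-0.46, SE 0.23), MSMO1 (-0.63, SE 0.34), TM7SF2 (-0.52, SE 0.31), HMGCS1 (-0.75, SE 0.48) and DHCR7 (-0.47, SE 0.31) followed by p-value. TM7SF2 was -0.26 without IVD mono-culture replicate 2 (conceptus 8), and DHCR7 -0.31 without IVP mono-culture replicate 1 (conceptus 24). The estimate was above 0 for 7 of the 29 members, with a median of -0.27 against -0.02 over all genes.

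In co-culture no member passed with edgeR, where 0.0251% of all genes did, and 4 had an unadjusted p under 0.05, all higher in IVP, where 13.6% of all genes passed that limit (6.81% higher in IVP). CYP51A1 averaged 255 ± 220 CPM in IVP co-culture (SD, n = 7) and 80.8 ± 43.8 CPM in IVD co-culture (SD, n = 9), a difference of 1.66 (SE 0.45, edgeR adjusted p = 0.166). DESeq2 gave an adjusted p of 0.0322 for CYP51A1, the only member it called (0.966% of all genes), and limma voom called none (0.0125%). The CYP51A1 difference was 1.04 with the TMM factor as a covariate (edgeR adjusted p = 0.499), 1.12 with the uterus as a block (edgeR adjusted p = 0.916) and ran from 1.13 to 1.98 over the fits that left out a library or a conceptus, with edgeR adjusted p of 0.0441 to 0.581. The threshold was passed without IVP co-culture replicate 3 (1.84, edgeR adjusted p = 0.0495) and without conceptus 24 (1.98, edgeR adjusted p = 0.0441). The IVP libraries of CYP51A1 ran from 49.9 to 691 CPM and overlapped the IVD range of 35.9 to 149 CPM.

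INSIG1 averaged 168 ± 150.4 CPM in IVP co-culture (SD, n = 7) and 48.3 ± 21.4 CPM in IVD co-culture (SD, n = 9), a difference of 1.80 (SE 0.55, edgeR adjusted p = 0.201). The INSIG1 difference was 0.88 without conceptus 62b, 0.93 with the uterus as a block and 0.81 with the TMM factor as a covariate (edgeR adjusted p = 0.718, 0.916 and 0.604). The next members were IDI1 (0.71, SE 0.30), FADS1 (1.46, SE 0.67), NSDHL (0.53, SE 0.26) and MVD (0.45, SE 0.22), with edgeR adjusted p of 0.308 to 0.378. IDI1 was 0.47, FADS1 0.30 and MVD 0.20 with the TMM factor as a covariate, and FADS1 was 0.75 with the uterus as a block. Without IVP co-culture replicate 4 (conceptus 23) NSDHL was 0.33 and MVD 0.24. For INSIG1 and FADS1 the 3 highest IVP co-culture libraries were the sections of conceptuses 62a and 62b. The comparison of the types in co-culture rests on 4 IVP conceptuses, 2 of them from the same recipient, and a conceptus cannot serve as its own control between the types.

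**Figure D4:**
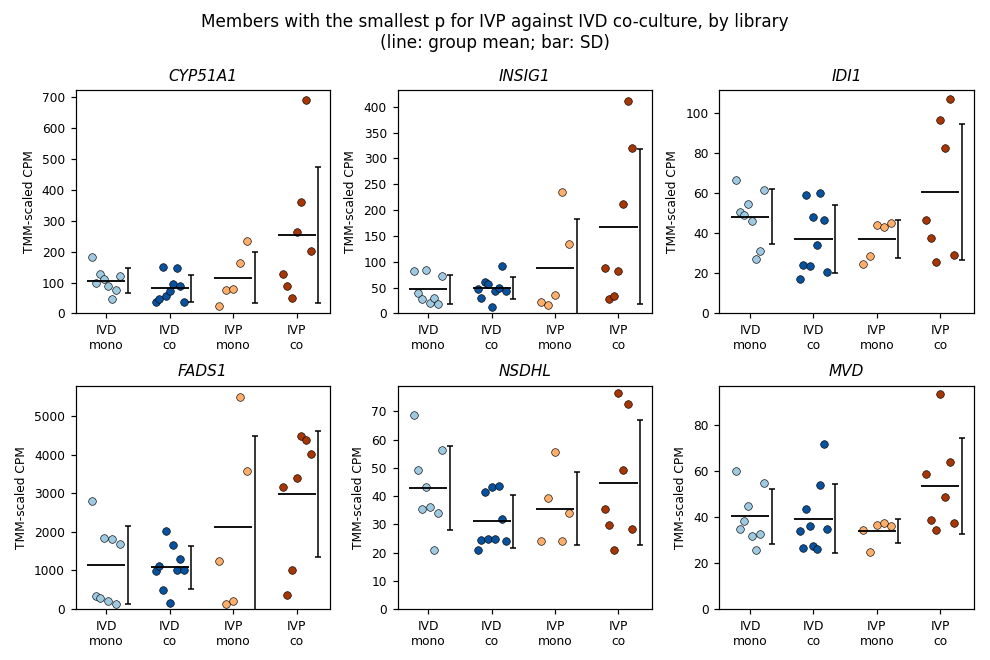
TMM-scaled CPM by library of the 6 members with the smallest p for IVP against IVD in co-culture (CYP51A1, INSIG1, IDI1, FADS1, NSDHL and MVD), with group mean (line) and SD (bar). IVP co-culture libraries of CYP51A1 ran from 49.9 to 691 CPM and overlapped the IVD co-culture libraries in every panel.

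The members varied together across libraries. With the 4 group means removed, pairs of sterol enzymes had a median Pearson's r of 0.58 over the 29 libraries, which come from 13 conceptuses, and 122 of 136 pairs were above 0, against a median of 0.00 over pairs of all genes. The 4 genes of sterol regulation and transport had a median r of 0.69 among themselves, the fatty acid genes 0.24, and sterol enzymes with fatty acid genes 0.30. The closest pairs were HMGCS1 with FDFT1 (r = 0.95), SCD with FADS2 (0.93), NSDHL with DHCR7 (0.91) and IDI1 with MSMO1 (0.91). Next came FADS1 with FADS2 (0.90), which overlap in the annotation, and SREBF1 with SCD (0.88). These are descriptions, since sections of a conceptus share their animal and libraries share their scaling.

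Among the members that passed a test, r with the mean of the sterol enzymes other than the gene itself was 0.80 for LSS, 0.63 for HSD17B7, 0.24 for ACACA and -0.13 for PMVK. It was 0.94 for HMGCS1, which passed in no comparison. The TMM factor had an r of -0.71 with FADS2, -0.70 with INSIG1 and -0.61 with SCD, and of -0.02 with LSS, -0.38 with HSD17B7, 0.17 with ACACA and 0.37 with PMVK. Negative values mean that a gene was higher in libraries with a low scaling factor for their group. Group means were removed from both, so these values do not describe differences between groups.

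The mean of the 17 sterol enzymes, each centred on its mean over libraries, was 0.14 ± 0.48 in IVD mono-culture (SD, n = 8), -0.12 ± 0.37 in IVD co-culture (SD, n = 9), -0.19 ± 0.41 in IVP mono-culture (SD, n = 5) and 0.13 ± 0.50 in IVP co-culture (SD, n = 7). The group means differed by less than the spread within groups. The fatty acid genes gave -0.01 ± 0.77, -0.10 ± 0.55, -0.14 ± 0.72 and 0.25 ± 0.49 in the same order.

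**Figure D5:**
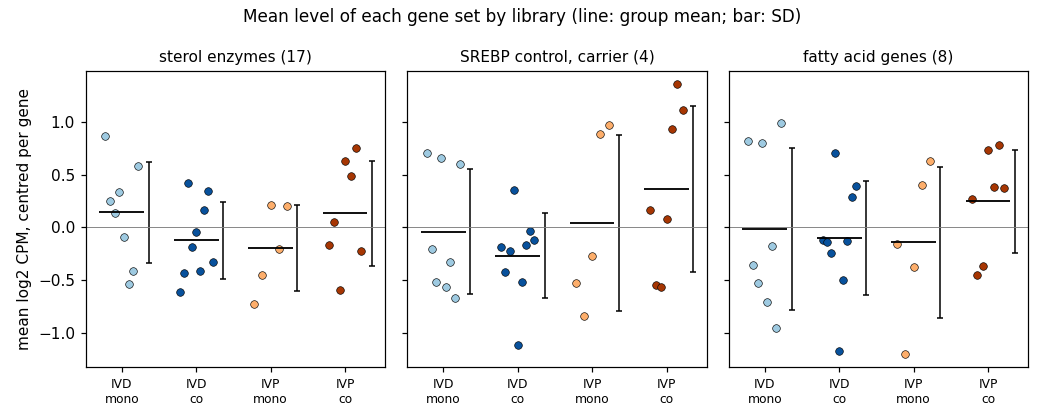
Mean centred log2 CPM of the sterol enzymes, the sterol regulation and transport genes and the fatty acid genes in each conceptus library by group. For the sterol enzymes the 4 group means lie between -0.19 and 0.14 and every group overlaps the others.

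Genes around the pathway were taken from lists that are not part of the 29. They cover other sterol steps and SREBP processing first. MBTPS1, the protease that makes the first cut in SREBPs, rose by 0.58 in IVD (SE 0.14, edgeR adjusted p = 0.0166), and with the conceptus as a block the edgeR adjusted p was 0.0559. TMEM97, a sterol-responsive membrane protein that binds NPC1, rose in the average by 0.64 (SE 0.18, edgeR adjusted p = 0.0174).

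Among the genes of lipoprotein uptake and cholesterol transport, GRAMD1A, which carries cholesterol from the plasma membrane to the endoplasmic reticulum, had 33.7 ± 12.2 CPM in IVD mono-culture (SD, n = 8) and 69.9 ± 21.4 CPM in IVD co-culture (SD, n = 9), with 37.2 ± 13.4 CPM (SD, n = 5) and 65.8 ± 17.2 CPM (SD, n = 7) in IVP. GRAMD1A rose by 1.05 in IVD (SE 0.21, edgeR adjusted p = 0.00763) and by 0.94 in the average (SE 0.17, edgeR adjusted p = 0.00124), and both held with the conceptus as a block (edgeR adjusted p = 0.0299 and 0.0106). Adding the TMM factor as a covariate gave GRAMD1A an edgeR adjusted p of 0.0414 in IVD and 0.0880 in the average. NPC2, which hands lysosomal cholesterol on, rose by 0.69 in IVD (SE 0.21, edgeR adjusted p = 0.0498), and with the conceptus as a block the edgeR adjusted p was 0.138. GRAMD1C and STARD3 also rose in the average.

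In the remaining lists the share called in the average ran from 6.25% to 28.6% of the genes tested, against 18.9% of all genes, and in IVD from 0% to 9.09%, against 6.33%. LPCAT3, a phospholipid remodelling enzyme on the list of efflux and oxysterol genes, rose in the average by 1.19 (SE 0.29, edgeR adjusted p = 0.00653), the only call among 9 genes. Of 11 genes of the non-sterol branch, RABGGTB rose in IVD and in the average, and GGPS1 and PDSS2 fell in the average. Of 22 genes of fatty acid elongation, desaturation and activation, HACD1 rose in both, TECR rose and MCAT fell in the average. CS and SLC25A1 rose in the average among 7 genes of NADPH and citrate supply. PNPLA2 rose in both and LPIN1 and DGAT1 in the average among 16 glycerolipid genes, and HADH rose in both among 16 genes of fatty acid oxidation. None of these lists had a call in IVP co-culture against mono-culture, between the types or in the difference of changes, where edgeR called at most 4 genes in all. With the conceptus as a block the IVD calls of RABGGTB, HACD1, PNPLA2 and HADH and the averaged calls of NPC2, GRAMD1C, PDSS2, SLC25A1, CS and LPIN1 were past the threshold no longer, and GPAM, an acyltransferase of glycerolipid synthesis, fell by 0.81 in the average (edgeR adjusted p = 0.0471). None of the genes around the pathway that are named here passed in the average with the TMM factor as a covariate, and of those called in IVD only GRAMD1A and RABGGTB did.

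In the 12 libraries of endometrium cultured with IVP conceptus all 29 members were measured, in a table that the authors aligned separately, so the levels stand beside those of conceptus without a test. SREBF2 ranged from 186 to 319 CPM there, INSIG1 from 59.9 to 437 CPM and LSS from 6.78 to 35.3 CPM. STARD4 ranged from 1.28 to 4.67 CPM, ELOVL6 from 3.32 to 15.3 CPM and EBP from 1.81 to 7.72 CPM, each below the lowest conceptus library. TM7SF2 went the other way, at 5.26 to 70.1 CPM against 1.36 to 5.53 CPM over the conceptus libraries. SCD ranged from 149 to 259 CPM and FASN from 46.1 to 183 CPM.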

How the data were processed

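Gene counts were deposited by the authors as raw counts, 1 table for conceptus and 1 for endometrium. Per the labels and the study's methods, poly(A) RNA was sequenced from stranded libraries, reads were trimmed with Trimmomatic, aligned with HISAT2 for conceptus and STAR for endometrium, both to the ARS-UCD1.2 assembly, and counted by featureCounts. The strand setting and tool versions are not given in the sources used here. Low-count genes had been removed from the conceptus table before deposit, where 2031 of 16149 genes have no symbol. In the endometrial table, 28 columns matched no sample and were not used. All conceptus libraries carry the same batch label.

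Samples were grouped by title. Genes were kept with edgeR's filterByExpr (minimum count 10, minimum total 15), scaled by TMM and fitted by edgeR's quasi-likelihood test (edgeR 4.0.16, R 4.3.3) with 4 group means over the 29 conceptus libraries; p-values were adjusted by Benjamini-Hochberg over 15942 genes at 0.05. Log2 CPM used a prior count of 1. The scripts were tested on simulated data. The alternatives were DESeq2 1.42.0 (filtering alpha 0.01), limma 3.58.1 voom with conceptus as a random block (correlation 0.281), DESeq2's size factors, other filters, only the compared groups, counts summed per conceptus, 1 factor of unwanted variation, the TMM factor as covariate, blocks by conceptus, title number or uterus, and leaving out each library. Leaving out each conceptus and DESeq2 with a conceptus block were added after seeing the data. Conceptus pairs the samples: sections of the same conceptus in both cultures deviated together in 16 of 16 pairs (median r 0.59, lowest 0.12), and those sharing a title number in 4 of 13 (median r -0.32).

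Members and lists were chosen with earlier results of these data known. Values are given for members past the threshold in any of 6 comparisons, the 6 with the smallest p in each, and SREBF1, SREBF2, INSIG1, SQLE, LSS, ACACA, FASN and SCD; other members have ranges. Genes of other lists are named where past the threshold, up to 4 per list. Some results of the lists on sterol processing and transport are not reported here. Overlaps between genes were looked up in RefSeq of ARS-UCD2.0, where all 29 members matched and 9 overlap another gene, among them NSDHL, SREBF1, SREBF2 and FASN. Gene lengths of the files' annotation were not used here, so FPKM were not computed.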

Additional observations from a re-analysis of the deposited data

Results flagged for a closer look

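Among 92 combinations of a group and a named member that were examined for a single library standing apart by Dixon's ratio, 3 were picked out, where chance gives about 1 in 20. MVD in IVP mono-culture replicate 2 (conceptus 23) was 24.9 CPM, below the other 4 libraries at 34.5 to 37.6 CPM. TM7SF2 in IVD mono-culture replicate 2 (conceptus 8) was 5.53 CPM, above the others at 1.48 to 2.75 CPM. DHCR7 in IVD mono-culture replicate 7 (conceptus 66) was 42.2 CPM, below the others at 81.5 to 134 CPM.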

How the results depend on the processing

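Over 1542 refitted values of 36 combinations of a member and a comparison, none changed sign, 42 were past the threshold no longer and 14 were newly past it. These combinations were the 6 members with the smallest p in each comparison, so a stable sign was likely beforehand. Over all 29 members signs did change. In IVD co-culture 8 were above 0 in the main fit and 5 with the conceptus as a block. The 2 members called in IVD co-culture became 1 with the conceptus as a replicate block (206 genes in all against 1009), 1 with the title number as a block (555), 0 with the uterus as a block (8), 4 with DESeq2 and a conceptus block (1780), 4 with 1 factor of unwanted variation (2433) and 0 with the TMM factor as a covariate (191). The 4 members called in the average over types stayed at 4 with the conceptus block and became 0 with the uterus block (331 genes in all against 3006), 2 with counts summed per conceptus (2399), 7 with 1 factor of unwanted variation (4600) and 0 with the TMM factor as a covariate (2). For IVP against IVD in co-culture the count of 0 became 1 with DESeq2 (154 genes against 4). No block by conceptus was possible between IVP and IVD, since each conceptus has 1 type. Leaving out each library or conceptus in turn gave 0 to 3 members in IVD (25 fits), 0 in IVP (17), 1 to 5 in the average (42), 0 and 0 to 1 between types in mono-culture (26) and co-culture (27), and 0 in the difference of changes (42). In IVD the count was 0 without conceptus 47 or 71 and 1 without conceptus 8 or 26, and in the average it was 1 without conceptus 62b or IVP mono-culture replicate 2. The cause of these changes was not tested.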
